A study of Homo sapiens with 4 samples.

Results

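The short arm of chromosome 8 (8p) was described here by the 500 bp windows of hg19 that the deposited table lists with a stop at or below 43000000. There are 9551 such windows among 59342 listed on chromosome 8 and 956365 in the whole table. The members were chosen by position alone. The centromere gap begins at 43838888, so that the last stretch of the short arm before the gap falls outside the rule and was counted with the rest. This rest of chromosome 8, with 49791 listed windows, was the comparison.

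The libraries came from FADU, an established line of a human hypopharyngeal squamous carcinoma. Each of 4 conditions had 1 library. Cells with the scrambled control and cells with TET1-si, the knockdown of TET1, were taken in normoxia and in hypoxia at 1% oxygen, which lasted 18 h for the control and 19 h for TET1-si. The knockdown was delivered by a lentiviral vector, and no condition had a replicate. The titles say hMeDIP-seq, the labels describe an antibody to 5-methylcytidine, and the methods describe chemical labelling of 5-hydroxymethylcytosine (5hmC), so that the mark behind the windows is uncertain. The names of the 4 columns of read counts match no sample, so that these counts were not used. A window is therefore known only as listed or not listed, the depth of the libraries is not analysed here, and no condition was compared.

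TET1 oxidizes 5-methylcytosine, which in human cells lies mainly at CpG sites, to 5hmC. Both marks are usually low in the CpG islands at active start sites and are found in gene bodies. Enrichment of either mark varies with the number of CpG sites in a window, so that each share of listed windows was set against a predicted share. The predicted share is how often autosomal windows of equal CpG number and similar GC content were listed, and a ratio of 1 means that windows were listed as often as their composition predicts. 8p carries the defensin genes, several very long genes and a segment around FGFR1 that is amplified in some carcinomas. Loss of 8p is frequent in squamous carcinomas of the head and neck. Copy number was not measured here.

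Windows of 8p were listed less often than their composition predicts. Of 85778 windows of 8p without an undetermined base, 11.1% were listed, whereas 19.2% were predicted, which gives a ratio of 0.579. Over all autosomes 17.6% of windows were listed. In the rest of chromosome 8 the listed share was 24.9% against a predicted 14.6%, a ratio of 1.71. 8p held 16.1% of the listed windows of the chromosome but 30.02% of all its windows. The 2 parts of the chromosome thus lay on opposite sides of the prediction, and the ratio of 8p was 0.339 times that of the rest. The exact binomial 95% interval of the 8p ratio was 0.568 to 0.590. It covers counting error only and treats neighbouring windows as independent, which they are not, and the table is a single sample of windows, so that no p-value was computed.

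By composition alone 8p would have had the higher share. Its windows had a mean of 5.49 CpG sites, above the 4.19 of the rest of the chromosome and the 5.01 of the other autosomes. The lower share was found in every class of CpG number. Among windows with 3 to 5 CpG sites, 8.41% were listed in 8p, 26.5% in the rest of the chromosome and 14.2% on the other autosomes. Among windows with 20 to 39 CpG sites the shares were 23.3%, 55.3% and 48.9%. In 8p the ratio to the prediction stayed between 0.486 and 0.613 over the 7 classes, whereas in the rest of the chromosome it was 2.47 in windows without a CpG site and 1.13 in windows with 20 to 39.

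**Figure D1:**
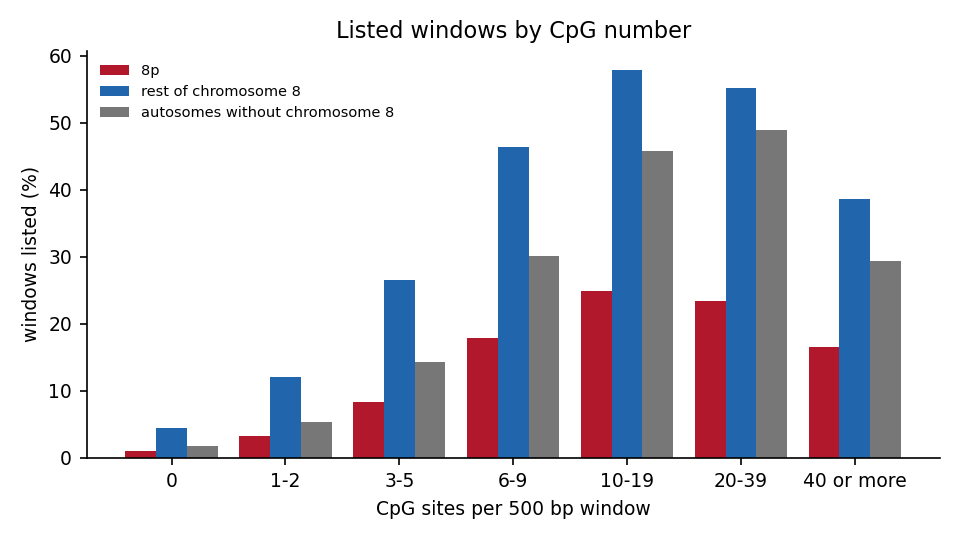
Share of 500 bp windows listed in the table (y axis, percent) by the number of CpG sites in the window (x axis), for 8p, the rest of chromosome 8 and the other autosomes. The 8p bars are the lowest in each of the 7 classes, with 23.3% in windows with 20 to 39 CpG sites.

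The methods kept uniquely mapping reads, so that repeated sequence can lower the listing. For 85.3% of 8p windows, 3 sampled 50-base sequences each occurred 1 time in the genome, against 88.4% in the rest of the chromosome and 84.98% on the other autosomes. Among these unique windows alone, with the prediction made from such windows, the ratio of 8p was 0.588.

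Among 39 autosome arms with at least 1000 windows, 8p up to the centromere gap had the third lowest ratio, 0.574, after 18q with 0.479 and 4q with 0.481. The long arm, 8q, had the second highest, 1.72, after 14q with 1.79. The quotient of short to long arm was 0.334 on chromosome 8, the lowest of 17 chromosomes with both arms, and the next was 0.501 on chromosome 20. The highest was 1.82 on chromosome 18.

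**Figure D2:**
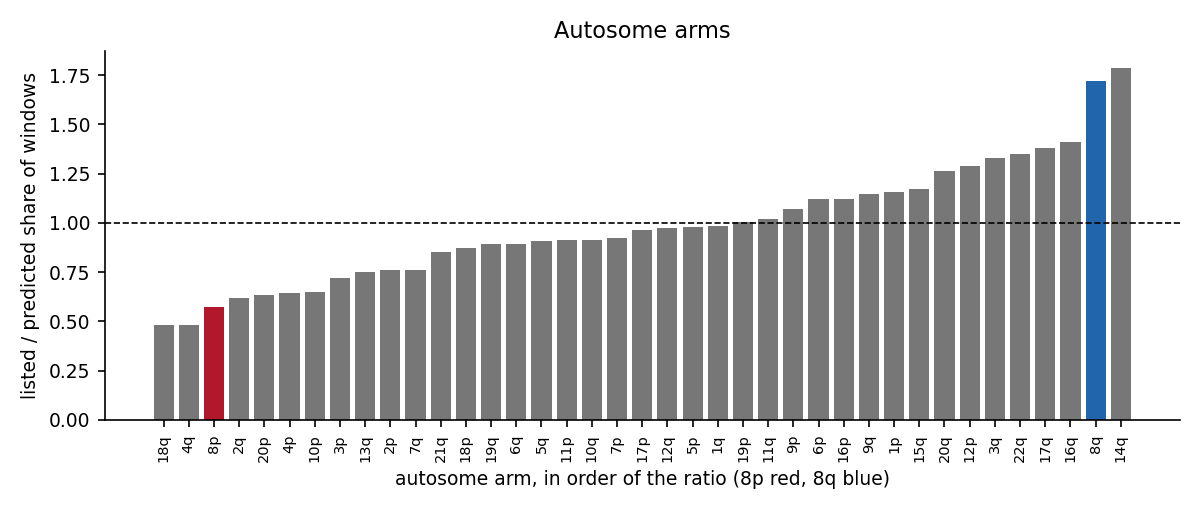
Ratio of listed to predicted share of windows (y axis) for 39 autosome arms in the order of the ratio (x axis), with 1 bar for each arm and a dashed line at 1. The short arm of chromosome 8 (red) is at 0.574 and the long arm (blue) at 1.72, near opposite ends of the order.

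The low share was not even along the arm. Over 43 bins of 1 Mb the ratio ranged from 0 to 2.33 with a median of 0.375 and quartiles of 0.165 and 0.731. It was below 1 in 36 of the 43 bins. The bins of the rest of the chromosome had a median of 1.45 (100 bins) and those of the other autosomes 0.783 (2551 bins). Bins with a ratio below 0.1 were 9 of 43 in 8p, or 20.9%, against 2.00% in the rest of the chromosome and 3.80% on the other autosomes. Bins along a chromosome are not independent, and these shares are descriptions.

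**Figure D3:**
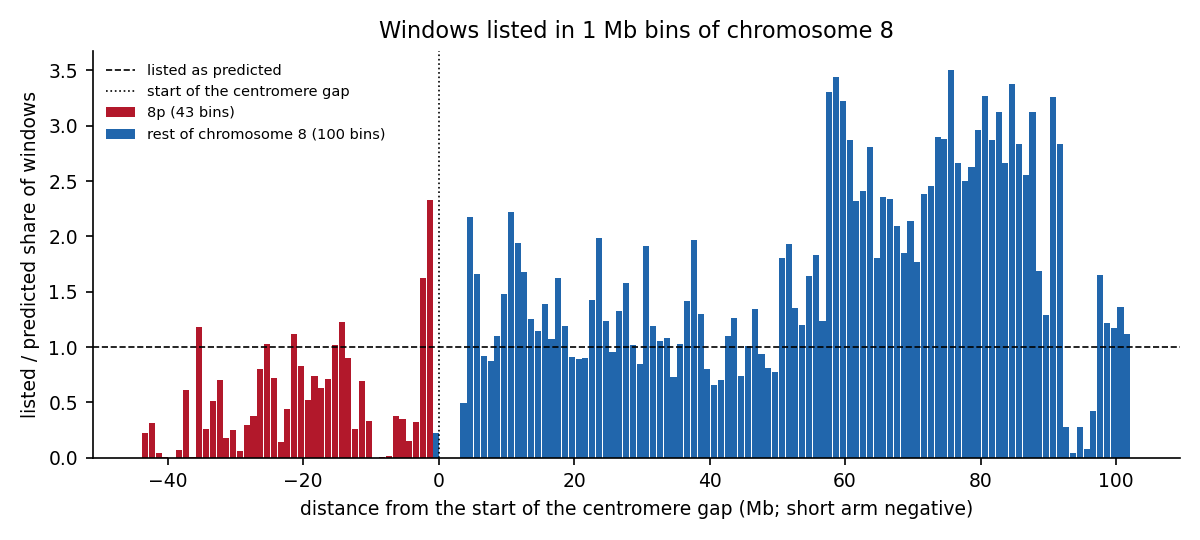
Ratio of listed to predicted share of windows (y axis) in 1 Mb bins of chromosome 8 against the distance from the start of the centromere gap (x axis, Mb). The bins of 8p (red) are mostly under the dashed line at 1, with stretches near 0, and rise to 1.62 and 2.33 in the last 2 bins before 43 Mb, while bins of the rest (blue) reach 3.503.

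The lowest segments of the arm hold CSMD1, its longest gene, and UNC5D. From 2 to 6 Mb, 42 of 8000 windows were listed, a ratio of 0.0310, and from 34 to 37 Mb 4 of 6000, a ratio of 0.00608. The bounds of these segments were not planned in advance. Unique sequence was at 91.4% and 90.5% of the windows of these segments. The 3 lowest bins were those from 4 to 5 Mb and from 34 to 35 Mb, with no listed window in either, and from 35 to 36 Mb, with 1. The longest stretch without a listed window ran over 2129.5 kb, from 33597001 to 35726500, where 457.3 listed windows were predicted, and contains the whole of UNC5D, a netrin receptor gene. The next ran over 2126.0 kb, from 3550001 to 5676000, with 632.4 predicted, and holds the start site of CSMD1, a gene for a large membrane protein with complement-binding repeats. The third, of 1204.0 kb from 35727001 to 36931000, contains KCNU1, a potassium channel gene of sperm. A gap of 1109.0 kb from 20240001 to 21349000 overlaps no protein-coding gene and had 419.9 predicted windows. Stretches of at least 100 kb without a listed window numbered 34 and covered 30.4% of the windows of the arm. The same share was not computed for the rest of the chromosome or for other arms, so that it cannot be called particular to 8p.

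The largest exception was a stretch near the limit of the rule. From 41 to 43 Mb 50.5% of windows were listed against a predicted 25.6%, a ratio of 1.97, whereas from 0 to 41 Mb the ratio was 0.487. In steps of 0.25 Mb the ratio was 0.580 from 40.75 to 41 Mb, 1.23 in the next step, and rose to 3.28 from 42.25 to 42.5 Mb. It was 0.596 from 42.75 to 43 Mb and, beyond the limit of the rule but still on the short arm, 0.258 from 43 to 43.25 Mb and 0.0236 from 43.5 to 43.75 Mb. At the limit of the rule, 36.3% of windows in the last 0.5 Mb inside were listed, with a ratio of 1.57, and 2.90% in the first 0.5 Mb outside, with a ratio of 0.191. The 3 longest runs of listed windows on the arm all lie between 42 and 43 Mb. The longest covers 68 windows, from 42318001 to 42352000, within SLC20A2, a phosphate transporter gene. The others are 43 windows from 42102001 to 42123500, in no protein-coding gene, and 37 windows from 42141001 to 42159500, in IKBKB, which encodes a kinase that activates NF-kappaB.

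After the 2 bins from 41 to 43 Mb, the highest bin was that from 29 to 30 Mb, with 23.3% listed and a ratio of 1.23, where KIF13B, DUSP4, SARAF and LEPROTL1 start. From 17 to 31 Mb, a segment with 111 gene starts, the ratio was 0.782, the highest of the segments before 41 Mb.

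Gene bodies were listed more often than the DNA between them. In 8p, 13.9% of windows in protein-coding gene bodies were listed against 20.2% predicted, a ratio of 0.689. Outside genes and promoters the share was 7.95% against 17.9%, a ratio of 0.445. The same order was found in the rest of the chromosome, with ratios of 1.86 and 1.59, and on the other autosomes, with 1.12 and 0.811.

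The promoter, taken as the 3000 bp upstream of a canonical start site, held a listed window in 146 of 280 protein-coding genes of 8p, or 52.1%. Over all autosomes 76.6% of genes had such a window. In the rest of chromosome 8 it was 380 of 418 genes, or 90.9%. The prediction from composition, which treats windows as independent, was 83.3% for 8p and 81.2% for the rest. From 41 to 43 Mb 19 of 23 genes had a listed promoter window, against 127 of 257 before 41 Mb. All 6 promoter windows were listed for 12 genes of the arm, a count not made for the other autosomes. Among the 12, NKX6-3, ANK1, PLAT, VDAC3, SLC20A2, SMIM19 and CHRNA6 start between 41 and 43 Mb. A gene body with a listed window was found for 204 of the 280 genes, or 72.9%, against 91.2% over all autosomes. Both 8p shares include 42 genes that start from 7 to 8 Mb, where 1.05% of windows were unique and 5 of 1899 were listed. None of these genes had a listed promoter window, and only ZNF705G had a listed body window. The part of repeated sequence in the 8p shares was not tested.

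Around start sites the listing of 8p dipped as elsewhere. In the bin from 1000 to 500 bp upstream, 30.4% of 280 windows were listed, close to the 31.7% predicted. In the 500 bp downstream of the start the share was 14.3% against 35.1% predicted, a ratio of 0.408 and the lowest of the 12 bins. In the same bin the ratio was 0.986 in the rest of the chromosome and 0.711 on the other autosomes. From 1500 to 2000 bp downstream the 8p ratio was 1.13, the highest of its bins. Start sites of 8p in the defensin region lie in repeated sequence, and the share of unique windows in the first 500 bp was 79.9% in 8p and 94.2% on the other autosomes. Its part in the dip was not tested.

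**Figure D4:**
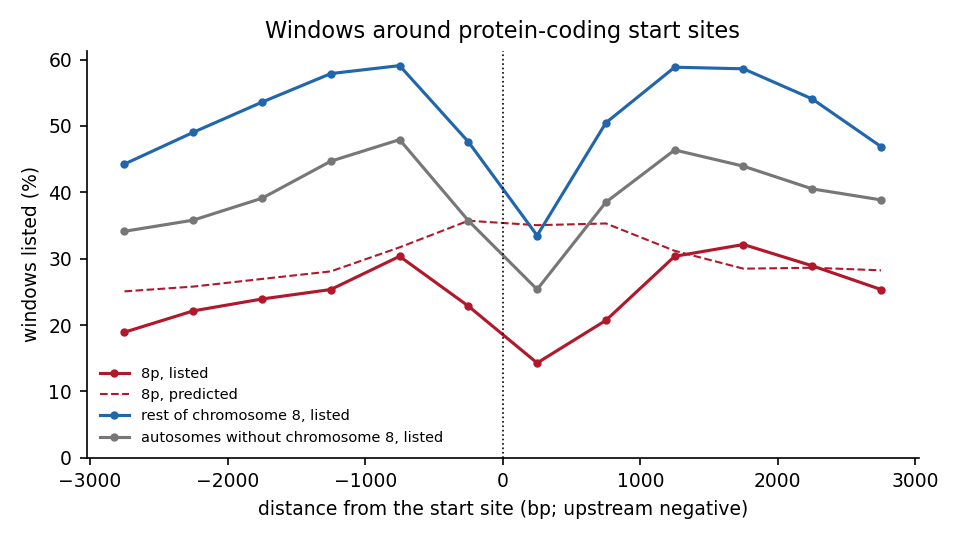
Share of windows listed (y axis, percent) in 500 bp bins around the start sites of protein-coding genes (x axis, bp from the start, upstream negative), for 280 genes of 8p, 418 genes of the rest of chromosome 8 and the genes of the other autosomes. Each solid line has its minimum just downstream of the start, at 14.3% in 8p, where the prediction for 8p (dashed) is 35.1%.

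Of the 280 genes, 165 had at least 40 windows in the body. Their ratio had a median of 0.645 and ranged from 0 to 3.50. It was above 1 in 53 of them and below 1 in 112. In the rest of the chromosome 241 of 283 such genes were above 1, with a median of 1.84. Most of this rest is 8q, which had the second highest ratio of the autosome arms. These counts were not made for the other autosomes. The 5 highest genes of 8p all lie between 41 and 43 Mb. SLC20A2, on chromosome 8 from 42273993 to 42397069, had 224 of 246 body windows listed, a ratio of 3.50. POLB, the DNA polymerase of base excision repair, had 38 of 67, a ratio of 3.11. CHRNA6 and CHRNB3, which encode nicotinic acetylcholine receptor subunits, were at 2.93 and 2.78. KAT6A, a histone acetyltransferase gene, was at 2.67 with 98 of 245 windows.

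At the other end, 13 of the 165 genes had no listed body window, against 2 of 283 in the rest of the chromosome. Ordered by the number of windows predicted, the first was UNC5D, from 35092993 to 35654068, with 0 of 1122 windows against 135.5 predicted. KCNU1 had 0 of 303 and ADAM18, a sperm surface gene, 0 of 291. The fourth is a gene without a name and the fifth TNFRSF10A, with 0 of 69 windows. SPAG11A, SPAG11B, ZNF705B and ZNF705D, also among the 13, had no body window of unique sequence. The part of repeated sequence in this count was not tested, and the count was not made for the other autosomes.

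Each list of genes is a description, to be read against the shares over all genes. A listed body window was found for 72.9% of 8p genes and 91.2% of autosomal genes, and a listed promoter window for 52.1% and 76.6%. The 8p shares include the genes in repeated sequence from 7 to 8 Mb. Of the 11 giant genes, 9 had a listed body window and 5 a listed promoter window, counts near the shares of 8p, and long genes have more windows that could be listed. The ratio over all their windows was 0.271, against 0.694 over all protein-coding genes of 8p. The list is not that of the longest genes of the arm. It holds KCNU1, of 151.8 kb, and leaves out longer genes. The ratios of those left out ran from 0.0713 for XKR6 to 1.89 for ANK1. The 11 genes of the list differed widely. CSMD1, from 2792875 to 4852494, had 3 of 4119 body windows listed, whereas 663.3 were predicted. SGCZ, which encodes a sarcoglycan of muscle, had 16 of 2307, a ratio of 0.0692, and DLGAP2, a gene for a postsynaptic scaffold protein, 44 of 1938, a ratio of 0.0648. NRG1, which encodes the ERBB ligand neuregulin, was at 0.571 with 155 of 2433 windows. MCPH1, a gene of the DNA damage response, and PSD3 were above 1, at 1.07 and 1.25. Unique sequence was at 83.6% to 97.2% of the windows of each of these genes.

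Defensins and their SPAG11 relatives are antimicrobial peptides. The annotation holds 28 of these genes on 8p, and the list holds 23. DEFA1B, DEFB108C, DEFB109B, DEFB130A and DEFB130B are not in it and had no listed body or promoter window. Of the 23, 3 had a listed body window: DEFB1 with 1 of 15, DEFB135 with 1 of 4 and DEFB134 with 3 of 16. The other 20 had none, and 2 of the 23 had a listed promoter window, where 72.9% and 52.1% of all 8p genes had one in the body and the promoter. Over the windows of the list the ratio was 0.101, but unique sequence was at 19.2% of these windows. In the bin from 7 to 8 Mb, where most of these genes lie in near-identical copies, 1.05% of windows were unique and 5 of 1899 were listed. DEFA6, DEFA4 and DEFA5 had unique windows throughout and none listed, with between 0.533 and 1.54 windows predicted for each.

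The 23 candidate tumour suppressor genes of the arm had a ratio of 0.528 over all their windows, and 20 had a listed body window, against 72.9% of 8p genes and 91.2% of autosomal genes. The median of the genes was 0.959, CSMD1 alone holding 4119 of the 8888 windows, and 11 were above 1. PPP2R2A, a regulatory subunit of protein phosphatase 2A, had the highest value, 1.97. RHOBTB2 had 45 of 66 windows listed, a ratio of 1.62, and DUSP4, a phosphatase of MAP kinases, 17 of 35, a ratio of 1.45. SFRP1, a secreted inhibitor of WNT signalling, was at 1.17 with 36 of 95 windows. DLC1 was at 0.472 and WRN, a helicase of genome maintenance, at 0.636.

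The TRAIL receptors, which lie side by side, were divided. TNFRSF10B, a death receptor gene from 22877646 to 22926544, had 32 of 98 body windows listed, a ratio of 1.43, and 3 of 6 promoter windows. TNFRSF10C and TNFRSF10D, which encode decoy receptors, had 0 of 29 and 0 of 57, and TNFRSF10A, the other death receptor gene, 0 of 69. None of the promoter windows of these 3 genes was listed. They lie in a stretch of 152.5 kb, from 22952001 to 23104500, with no listed window where 84.2 were predicted and where unique sequence was at 78.4% of windows. It ranked the 16th by predicted number among the 4017 stretches without a listed window on the arm. LOXL2, the next gene of the lists, had 125 of 257 windows listed.

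The 23 genes of the amplified segment had a ratio of 1.08 over all their windows. Of these genes, 19 had a listed body window and 14 a listed promoter window. Over all genes the body shares were 72.9% on 8p and 91.2% on the autosomes, and the promoter shares 52.1% and 76.6%. Of the 23, 17 lie before 41 Mb and 6 after. The 17 had 127 of 1428 body windows listed, or 8.89%, with a median ratio of 0.289, and only LETM2 was above 1, at 1.12. FGFR1, a fibroblast growth factor receptor gene from 38257733 to 38326352, had 17 of 138 windows listed, a ratio of 0.361. NSD3, a histone methyltransferase gene, had 10 of 226, a ratio of 0.289. ZNF703, ERLIN2, BRF2 and STAR had no listed body window. The 6 genes after 41 Mb had 339 of 566 windows listed, or 59.9%, and their ratios ran from 2.23 to 4.03. Other genes of these 2 Mb were lower. Of 16 genes there with at least 40 body windows, 11 were above 1, and 5, among them HOOK3, RNF170, FNTA and POMK, lay between 0.489 and 0.762, within the range of the 17. These genes and the division at 41 Mb were chosen after the values were seen. The highest of the 6 was VDAC3, a channel of the outer mitochondrial membrane, with 20 of 29. PLAT, the tissue plasminogen activator gene, had 59 of 66 and IKBKB 110 of 122.

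Of the 8 genes for developmental transcription factors, 6 had a listed promoter window and 6 a listed body window. Over all genes the promoter shares were 52.1% on 8p and 76.6% on the autosomes, and the body shares 72.9% and 91.2%. Each count lies between the shares of 8p and of the autosomes. All 6 promoter windows were listed for SOX7, an endodermal and endothelial factor, and for NKX6-3, and 5 of 6 for GATA4, a factor of heart and gut development. For GATA4 3.14 were predicted. NKX2-6 and ZNF703 had no listed window in the promoter or the body. EBF2, a factor of brown fat and bone cells, had 3 of 6 promoter windows listed but 10 of 408 body windows, where 75.6 were predicted.

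Cholesterol metabolism was a subject of the study. The list of 11 sterol and lipid genes had a ratio of 0.627 over its windows. Of these genes, 8 had a listed body window and 8 a listed promoter window. Over all genes the body shares were 72.9% on 8p and 91.2% on the autosomes, and the promoter shares 52.1% and 76.6%. The list includes NAT1 and NAT2, which encode arylamine N-acetyltransferases and are not sterol genes. They had 5 of 106 and 0 of 19 body windows listed. FDFT1, squalene synthase, which catalyses the first step committed to sterols, lies from 11653082 to 11696904 and had 28 of 88 body windows listed, a ratio of 1.23, and 4 of 6 promoter windows. GPAT4, an enzyme of glycerolipid synthesis, was at 1.97 with 52 of 96. ERLIN2, a protein of the degradation of HMG-CoA reductase, had 0 of 44 body and 0 of 6 promoter windows, and STAR, the carrier of cholesterol into mitochondria, 0 of 17 and 1 of 6. LPL, lipoprotein lipase, had 1 of 132 body windows where 21.1 were predicted. Only FDFT1 and GPAT4 of these genes were above 1.

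All 12 genes of the hypoxia, migration and EMT list had a listed body window and 8 a listed promoter window, with a ratio of 0.786 over their windows. Over all genes the shares were 91.2% and 76.6% on the autosomes and 72.9% and 52.1% on 8p. The 8p shares include many genes of few windows in repeated sequence. Each of the 12 had at least 35 body windows, and genes with more windows have more that could be listed. The body ratio was above 1 in 4 of the 12. LOXL2, a lysyl oxidase that crosslinks collagen and is induced by hypoxia, lies from 23154410 to 23282841 and had all 6 promoter windows listed and a body ratio of 1.41. BNIP3L, a mitophagy receptor gene induced by HIF-1, had 49 of 245 body windows listed, a ratio of 0.856, and 0 of 6 promoter windows. PTK2B, a focal adhesion kinase relative, was at 1.04 and ADAM9, a membrane protease gene, at 0.579. Over all protein-coding genes of 8p the ratio was 0.694.

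**Figure D5:**
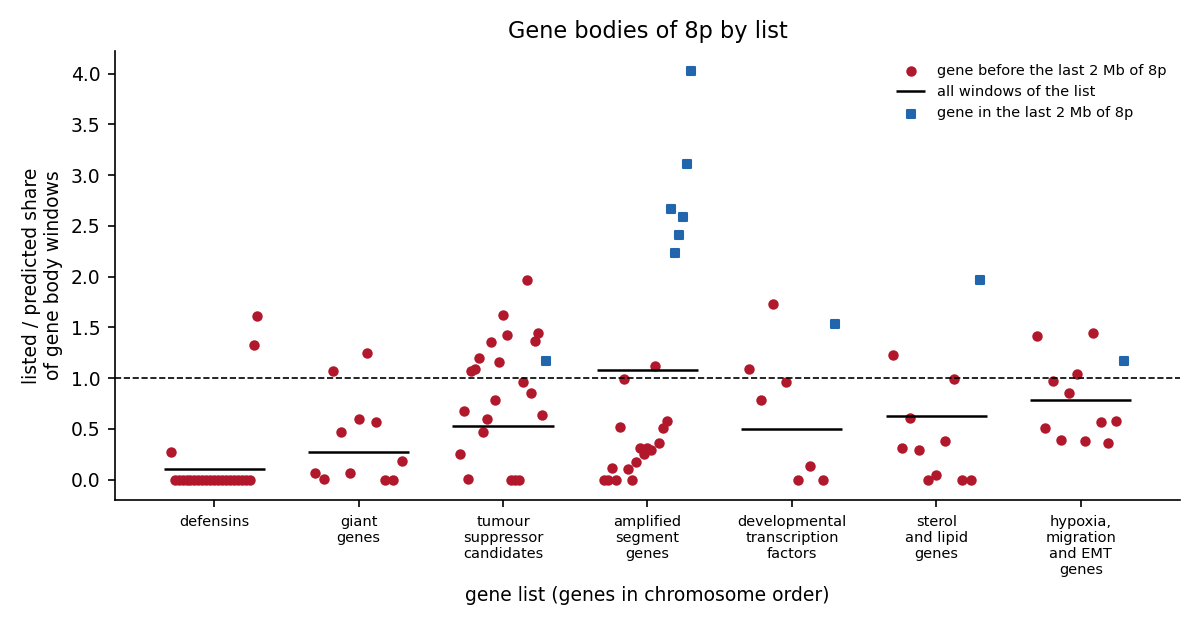
Ratio of listed to predicted share of gene body windows (y axis) for the genes of 7 lists on 8p, in chromosome order within each list (x axis); a point is a gene, a black bar all windows of the list, and the dashed line a ratio of 1. Genes of the last 2 Mb (blue squares) lie above 1 in the lists that have any, with the 6 of the amplified segment between 2.23 and 4.03. Of the genes of the same 2 Mb that have at least 40 body windows and are in no list, 5 were below 1.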

How the data were processed

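Per the labels and the methods, the authors mapped 50-base single-end reads to hg19 with Bowtie 0.12.7, kept unique and monoclonal reads, and used MEDIPS. The name of the deposited table gives a window size of 500 and a minimum of 20. What the minimum applies to is not given in the sources used here and was not tested. The table holds window positions and 4 columns of read counts, which were used in no step since their names match no sample. Unlisted windows may have had reads.

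Windows were laid on GRCh37, whose chromosome 8 coordinates are those of hg19. Windows without an undetermined base were the background (5368882 on the autosomes). The predicted share was taken from autosomal windows of the same CpG number (40 or more as one class) and GC content in steps of 25 bases. Unique sequence was searched by exact match on both strands, with 3 sequences of 50 bases in each window. Arms were divided at the longest run of undetermined bases. Start sites were those of canonical transcripts of 18978 protein-coding gene entries of GENCODE version 44 lifted to GRCh37, PINX1 having 2 entries on 8p. Windows were counted by midpoint.

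The arm and the gene lists were chosen with earlier results of these data known. Genes named are those of the lists and, among genes with at least 40 body windows, the 5 highest and 5 lowest ratios (ties by predicted number), with the 3 highest and lowest bins, runs and stretches. The stretches of 1109.0 kb and 152.5 kb, the 0.25 Mb steps and the division at 41 Mb were chosen after the values were seen. The segments of unequal length along the arm were not planned in advance. Comparisons are descriptions with no test. The tools were numba 0.67.0, Matplotlib 3.10.9, SciPy 1.17.1, pandas 2.3.3, NumPy 2.4.6 and Python 3.11.15.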

Additional observations from a re-analysis of the deposited data

How the results depend on the processing

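No paired analysis was possible because no library could be matched to a condition. The ratio of 8p was 0.579 and stayed below 1 under the 7 alternatives tried. It was 0.566 with the prediction from CpG number alone, 0.633 with no prediction, 0.553 in windows over 5000 bp from start sites and 0.487 without the last 2 Mb, the last chosen after seeing the data. The ratio of 8p to the rest of the chromosome, 0.339, was 0.447 with no prediction, 0.370 without 120 to 130 Mb of the rest, 0.313 without the first and the last 1 Mb of 8p and 0.350 without 6 to 13 Mb of 8p. In alternatives chosen after seeing the data it was 0.350 in windows with unique sequence, 0.475 without the 35 Mb of high bins that end 10.4 Mb before the end of the chromosome and 0.285 without the last 2 Mb of 8p. The listed share of 8p was 18.5% in windows with at least 5 CpG sites. The other 17 of 29 values, among them the 7 gene lists with 3000 bp upstream added, stayed within the interval, the quartiles or 1.5 times the count of the reported value. With 2 Mb bins the median was 0.546. The planned restriction to windows with few repeats was not run, since the reference does not mark repeats. Windows say nothing of levels, and the depth of a library limits which windows could be listed.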
